A study of Aedes aegypti with 8 samples.

Results

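The genes described here were 10 antioxidant enzymes and dual oxidases of *Aedes aegypti*, the yellow fever mosquito, chosen by gene identifier: catalase AAEL013407, thioredoxin reductase AAEL002886, dual oxidases AAEL007563 and AAEL007562, superoxide dismutases AAEL006271 and AAEL000274, thioredoxin peroxidases AAEL014548, AAEL013528 and AAEL004112, and glutathione peroxidase AAEL012069. Of these, 7 were found among the 19712 identifiers of the count table, and all 7 passed the filter on low counts that left 11095 genes for testing. Superoxide dismutase AAEL000274 and thioredoxin peroxidases AAEL014548 and AAEL004112 were not analysed here. Midguts from females 3 to 5 days old were kept for 35 h in serum-free Schneider's *Drosophila* medium with 10 µM hemin chloride (10 µM heme) or with none added (0 µM heme), and polyA RNA was sequenced. Each group held 4 biological replicates, for 8 libraries, and the midguts of several sugar-fed females were pooled for each library. The midguts were outside the animal and had received no blood meal, so the comparison is of added heme in culture.

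Reactive oxygen species are made and removed in linked steps. Dual oxidases pass electrons from NADPH to oxygen and release hydrogen peroxide at the gut surface, where it acts in immunity towards gut microbes. Superoxide dismutases turn superoxide into hydrogen peroxide, which catalase, glutathione peroxidases and thioredoxin peroxidases break down. Thioredoxin peroxidases are recharged by thioredoxin, and thioredoxin by thioredoxin reductase, which in *Drosophila* also takes the place of the missing glutathione reductase. Free heme, released in quantity when a mosquito digests blood, can drive the formation of radicals, so these enzymes bear on how the midgut meets a heme load.

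Total counts were 46027977 to 56947544 per library, and 14985 to 15293 identifiers had at least 1 count. The TMM scaling factor of 10 µM heme replicate 1, 0.848, stood below those of all other libraries (0.961 to 1.08). In the paper's multidimensional scaling plot, 0 µM heme replicate 1 and 10 µM heme replicate 2 stood apart from their groups. As a check of the tissue, a pair of vacuolar ATPase subunits (the proton pump of gut epithelium) and the digestive enzymes trypsin AAEL002273 and alpha-amylase AAEL010536 had a summed level of 2046 to 2325 CPM (counts per 1000000 of the scaled library total) with heme and 1976 to 2474 CPM without. This trypsin and this alpha-amylase were close to absent. Counts of trypsin were 9 to 17 with heme and 13 to 24 without, and those of alpha-amylase 6 to 11 with heme and 2 to 9 without. Of these 4 genes, 3 were tested and 0 called. The count was 0 also at an unadjusted p under 0.05 in the edgeR exact test, and by the quasi-likelihood test and DESeq2. Most of the summed level came from ATPase subunit AAEL000291 (mean 1985 CPM with heme and 2037 CPM without). With this trypsin and this alpha-amylase close to absent, these levels do not identify the tissue, which is taken from the sample labels. Other digestive enzymes were not examined here. Of 5 markers of muscle, matrix and fat body, 4 were tested and 2 were called, beside 4.63% of all genes tested. Laminin gamma 1 AAEL005187, a basement membrane protein, fell with heme (log2 fold change -0.60 ± 0.12, edgeR exact test, adjusted p = 0.00269). Anterior fat body protein AAEL013662 rose (0.78 ± 0.16, edgeR exact test, adjusted p = 0.00119). Another laminin chain, laminin beta-2 AAEL003658, was not called (-0.14 ± 0.19, edgeR exact test, adjusted p = 0.925). Neither was paramyosin AAEL000485 of muscle (-0.094 ± 0.076, edgeR exact test, adjusted p = 0.907). The summed level of the 5 was 143 to 160 CPM with heme and 153 to 186 CPM without, nidogen being near 0 (counts of 0 to 6 with heme and 1 to 4 without). The part of these cells in the results below was not tested. In whole midguts, fewer cells of a type and less RNA per cell cannot be told apart.

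No member was called differentially expressed upon heme exposure. By the edgeR exact test, 0 of 7 passed an adjusted p of 0.05, and 0 had an unadjusted p under 0.05. Over all genes tested, 514 of 11095 (4.63%) were called, 246 higher and 268 lower with heme (142 higher of 442 when scaled by library totals), and 1477 (13.3%) had an unadjusted p under 0.05. Read against that share, a count of 0 among 7 does not set the members apart. The quasi-likelihood test also called 0 of 7 members (2.85% of all genes), with 1 at an unadjusted p under 0.05 (1665 of all genes). DESeq2 called 0 (6.47% of the 11068 genes to which it gave an adjusted p), with 1 at an unadjusted p under 0.05 (1696 of all genes). Limma-voom with quality weights called 0 (5.32% of all genes), with 3 at an unadjusted p under 0.05 (2209 of all genes). Fold changes were positive for 5 members and negative for 2. Their median was 0.19 on the log2 scale, beside 0.019 over all genes tested, and the median size regardless of sign was 0.24, beside 0.17. What the data allow for each gene is given by the 95% interval of its change from limma-voom. Over the 7 members these intervals ran from 0.606-fold to 1.80-fold, and 0 of 7 reached a change of 2-fold in either direction. Over all genes, 20.8% of the intervals did, so here too a count of 0 among 7 does not set the members apart. Changes inside these intervals remain possible for each gene. No other identifier had counts within 2% of those of a member in all 8 libraries (0 for each of the 7), but how reads shared by related genes were counted is unknown.

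**Figure D1:**
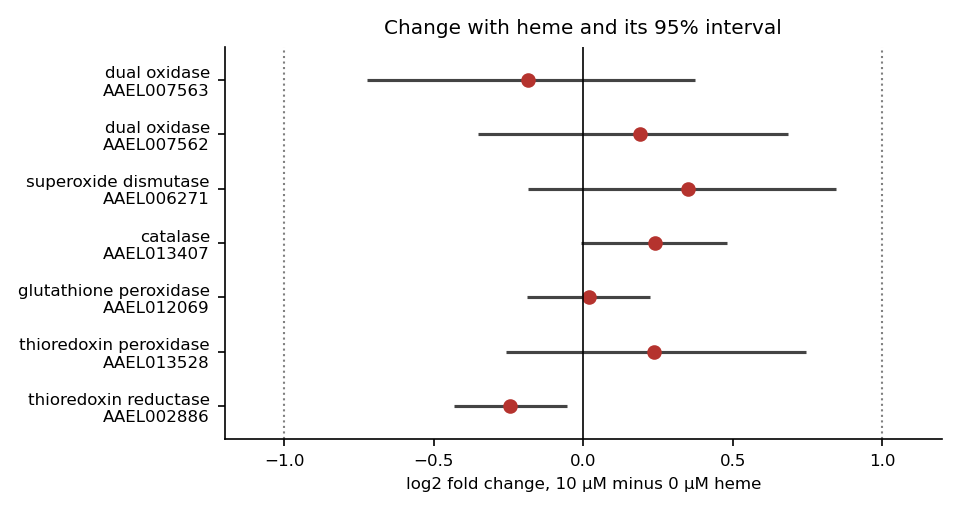
Log2 fold change of each of the 7 members (10 µM minus 0 µM heme, edgeR, points) with its 95% interval from limma-voom (lines) on a linear axis of log2 units. Dotted lines mark a 2-fold change, which no interval reaches, and only the interval of thioredoxin reductase, -0.43 to -0.056, lies wholly on one side of 0.

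The dual oxidases, which make peroxide directly from oxygen, had low counts. Dual oxidase AAEL007563 had counts of 17, 21, 16 and 16 with heme (replicates 1 to 4, in this order throughout), against 18, 22, 25 and 16 without. Scaled to the library, these were 0.374, 0.374, 0.330 and 0.263 CPM with heme, against 0.398, 0.381, 0.459 and 0.281 CPM without. The groups overlapped, and the lowest library of each was replicate 4. The means were 0.335 ± 0.0526 CPM with heme and 0.380 ± 0.0738 CPM without (SD, n = 4 each). The log2 fold change was -0.19 ± 0.17 (standard error from the log2 CPM of both groups, here and below), with an adjusted p of 0.957 in the edgeR exact test. The interval was 0.606-fold to 1.30-fold. The size of the change turned on single libraries. It was -0.078 without 0 µM heme replicate 3, -0.075 without 10 µM heme replicate 4 and -0.31 without 0 µM heme replicate 4, and none of these passed the threshold. The coefficient of variation between replicates was 15.7% with heme and 19.4% without, and counting error alone would give 23.9% with heme and 22.2% without.

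Dual oxidase AAEL007562 had counts of 57, 92, 87 and 157 with heme and of 63, 109, 72 and 101 without. This was 1.25, 1.64, 1.79 and 2.58 CPM with heme, against 1.39, 1.89, 1.32 and 1.78 CPM without. The highest of the 8 values was 10 µM heme replicate 4, the lowest was 10 µM heme replicate 1, and all 4 libraries without heme lay between them. The means were 1.81 ± 0.556 CPM with heme and 1.60 ± 0.280 CPM without (SD, n = 4 each), with a log2 fold change of 0.19 ± 0.24 (edgeR exact test, adjusted p = 0.918). The interval was 0.783-fold to 1.61-fold. The positive sign rested on 1 library, since the change was -0.032 without 10 µM heme replicate 4. Here the spread between heme replicates, 30.6%, exceeded the counting error of 10.1%, as it did without heme (17.5% against 10.8%).

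The dual oxidases were also set against each other within each library, which removes the scaling. Counts of AAEL007563 were 29.8%, 22.8%, 18.4% and 10.2% of those of AAEL007562 with heme (replicates 1 to 4), against 28.6%, 20.2%, 34.7% and 15.8% without. AAEL007562 therefore had the higher count in 8 of 8 libraries, although counts were not divided by transcript length and so do not rank the levels of different genes. The mean log2 ratio was -2.40 ± 0.66 with heme and -2.08 ± 0.51 without (SD, n = 4 each). The difference of -0.33 was within the spread between replicates (two-sided exact permutation test over 70 arrangements, p = 0.457). It was -0.031 without 10 µM heme replicate 4 (exact permutation p = 0.914), -0.15 without 0 µM heme replicate 3 (exact p = 0.771), -0.52 without 0 µM heme replicate 4 (exact p = 0.286) and -0.55 without 10 µM heme replicate 1 (exact p = 0.257).

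Superoxide dismutase AAEL006271, which makes peroxide from superoxide, had counts of 21, 41, 22 and 32 with heme and of 16, 23, 27 and 26 without. In CPM it had 0.462, 0.730, 0.453 and 0.525 with heme, against 0.353, 0.399, 0.496 and 0.457 without. The groups overlapped, and 10 µM heme replicate 2 stood highest. The means were 0.543 ± 0.129 CPM with heme and 0.426 ± 0.0631 CPM without (SD, n = 4 each). The log2 fold change of 0.35 ± 0.18 was the largest among the 7 members, yet the adjusted p was 0.756 (edgeR exact test) and the interval was 0.880-fold to 1.80-fold. Leaving out 10 µM heme replicate 2 gave a change of 0.16, and leaving out 0 µM heme replicate 1 as well gave 0.094. Replicates varied by 23.8% with heme and 14.8% without, where counting error alone would give 18.6% with heme and 20.9% without, so most of this spread was of the size that counting gives.

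Catalase AAEL013407, a heme enzyme itself and the classical remover of hydrogen peroxide, had 154, 178, 199.7 and 195 CPM with heme, against 151, 146, 143 and 175 CPM without. In 3 of 4 heme libraries catalase lay above the 4 libraries without heme. Heme replicate 1 lay below 0 µM heme replicate 4, so the groups overlapped. The means were 181.8 ± 20.7 CPM with heme and 154.0 ± 14.6 CPM without (SD, n = 4 each), a log2 fold change of 0.24 ± 0.11. The edgeR exact test gave p = 0.102 and an adjusted p of 0.539, the smallest of the 7 members. The adjusted p was 0.347 by the quasi-likelihood test and 0.382 by DESeq2. The interval of 0.995-fold to 1.40-fold just reached no change. Counts were 7003 to 11890 with heme and 6850 to 9963 without, and the coefficient of variation was 11.4% with heme and 9.46% without. Counting error alone would give 1.02% with heme and 1.10% without.

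**Figure D2:**
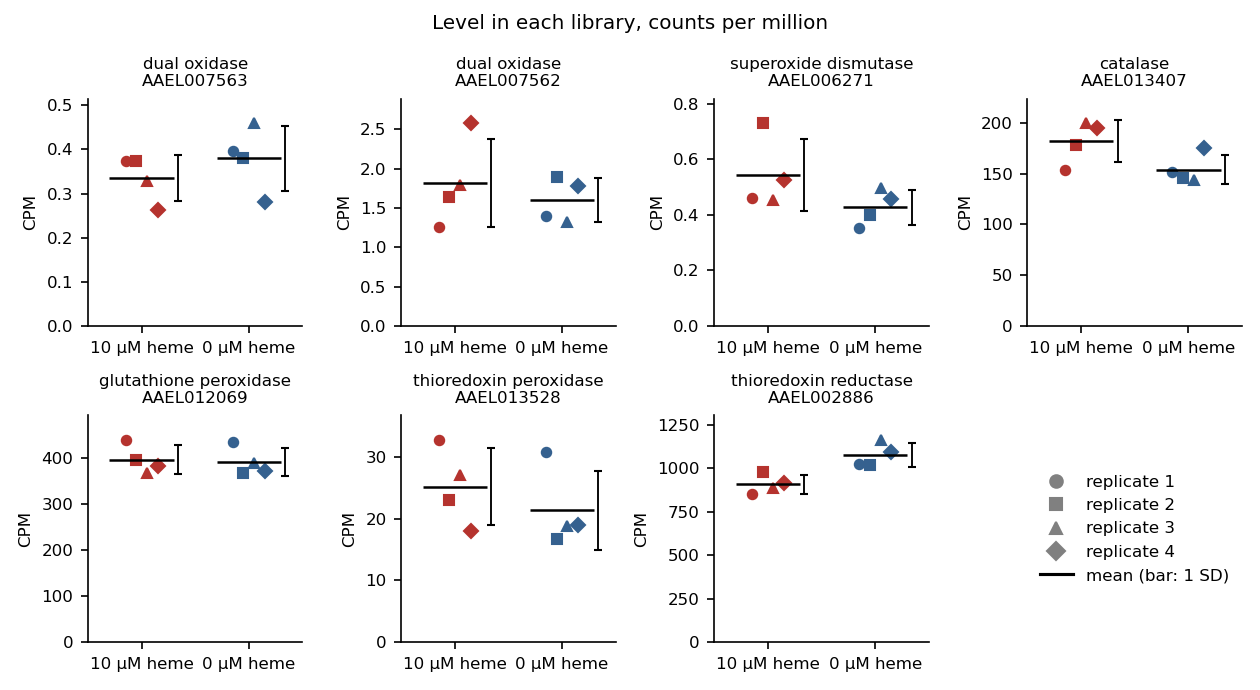
Level in CPM (linear axes from 0) of each of the 7 members in the 4 libraries with 10 µM heme and the 4 with 0 µM heme, with replicate number by symbol, the mean as a line and 1 SD as a bar beside it. The groups overlap in every panel but that of thioredoxin reductase, where the heme libraries reach at most 976 CPM and the lowest library without heme has 1016 CPM.

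Glutathione peroxidase AAEL012069, a family that in *Drosophila* draws on thioredoxin, gave the smallest change. It had 440.0, 395, 367 and 384 CPM with heme, against 436, 368, 389.9 and 372 CPM without. The ranges nearly coincided, and the highest library of each group was replicate 1. The means were 396.4 ± 31.3 CPM with heme and 391.6 ± 31.0 CPM without (SD, n = 4 each). The log2 fold change was 0.018 ± 0.079 (edgeR exact test, adjusted p = 1). Its sign is not determined, as it was -0.071 with library totals and -0.046 without 10 µM heme replicate 1. The interval was 0.877-fold to 1.17-fold.

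Thioredoxin peroxidase AAEL013528 removes peroxide with electrons from thioredoxin. It had 32.7, 22.9, 27.0 and 17.95 CPM with heme, against 30.8, 16.8, 18.9 and 18.98 CPM without. Replicate 1 was the highest library in both groups, and the groups overlapped. The means were 25.2 ± 6.26 CPM with heme and 21.4 ± 6.37 CPM without (SD, n = 4 each), with a log2 fold change of 0.24 ± 0.27 (edgeR exact test, adjusted p = 0.846). The interval was 0.836-fold to 1.68-fold. The size of the change turned on the replicate 1 libraries. It was 0.47 without 0 µM heme replicate 1 (edgeR exact test, adjusted p = 0.242), 0.071 without 10 µM heme replicate 1 (adjusted p = 0.993) and 0.30 without both (adjusted p = 0.489), none of which passed the threshold. The spread between replicates was 24.9% with heme and 29.8% without, where counting error is 2.78% with heme and 2.99% without.

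Thioredoxin reductase AAEL002886, which recharges thioredoxin with electrons from NADPH, was the member whose libraries separated. It had 849, 976, 884 and 917 CPM with heme, against 1021, 1016, 1163 and 1093 CPM without. All 4 heme libraries lay below all 4 libraries without heme. This held for 1 of 7 members and for 10.2% of all genes tested, so a single such gene among 7 is close to the background. The means were 906.4 ± 53.8 CPM with heme and 1073 ± 69.2 CPM without (SD, n = 4 each), a log2 fold change of -0.24 ± 0.063, or 0.844-fold. The edgeR exact test gave p = 0.156 and an adjusted p of 0.651. The adjusted p was 0.277 by the quasi-likelihood test and 0.0857 by DESeq2, and no tool called the gene. The limma-voom interval was 0.741-fold to 0.962-fold. It was the only interval of the 7 that did not hold a fold of 1, which was so for 15.02% of the intervals of all genes, with no adjustment for the number of genes.

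The exact test does not use the observed spread of a single gene alone but a dispersion drawn from it towards that of genes of like abundance. Thioredoxin reductase varied by 5.93% between heme replicates and by 6.44% between those without heme, while the biological coefficient of variation that edgeR assigned to it was 16.8%. Its within-group SD on the log2 scale, 0.089, stood at the percentile 4.73 of all genes tested, with few genes less variable. Glutathione peroxidase was similar, with a percentile of 9.67, and catalase stood at 21.5. At the other end were dual oxidase AAEL007562 at 69.1 and thioredoxin peroxidase AAEL013528 at 73.7.

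**Figure D3:**
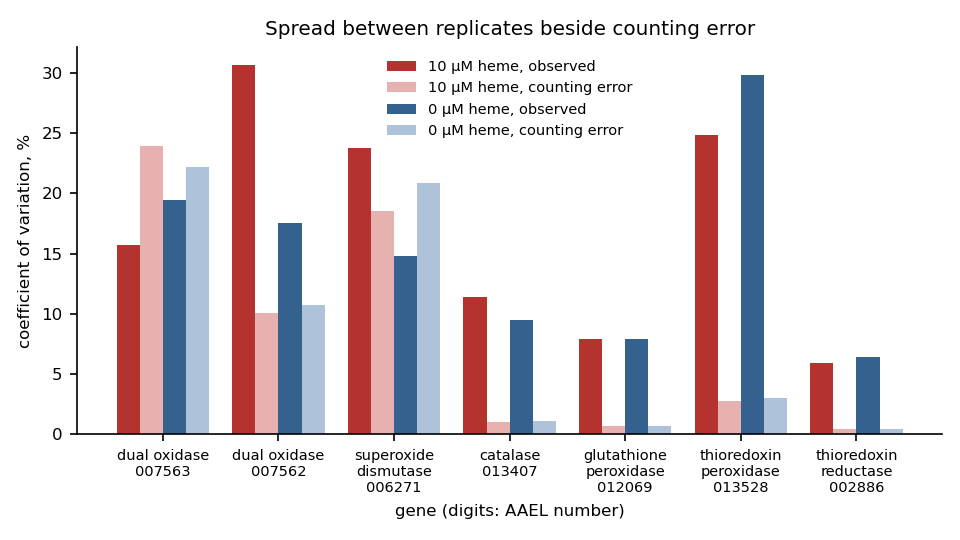
Coefficient of variation between the 4 replicates of each group (dark bars, in %) for each of the 7 members, with the part expected from counting error alone (pale bars), 10 µM heme in red and 0 µM heme in blue. For dual oxidase AAEL007563 the observed spread is below the counting error in both groups, while for thioredoxin peroxidase AAEL013528 it is 24.9% against 2.78% with heme and 29.8% against 2.99% without.

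Further enzymes of thiol and superoxide metabolism were taken from the annotation of the study's gene lists. Of 6 such genes, 6 were tested and 0 were called by the edgeR exact test, with 3 at an unadjusted p under 0.05, a level that 13.3% of all genes reached. The 3 are named because of their values. The list was chosen with earlier results of these data known, so no conclusion is drawn from the contrast with that share. DESeq2 called 1 of the 6 (6.47% of all genes given an adjusted p), limma-voom with quality weights 1 (5.32% of all genes) and the quasi-likelihood test 0 (2.85%).

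Sulfiredoxin AAEL003599, which repairs overoxidised thioredoxin peroxidases, had 47.0, 44.6, 39.3 and 38.9 CPM with heme, against 37.8, 32.9, 32.3 and 31.3 CPM without. All heme libraries lay above those without heme. Such a separation of the groups held for 1 of the 6 genes of this list and for 10.2% of all genes tested. The means were 42.5 ± 4.00 CPM with heme and 33.6 ± 2.89 CPM without (SD, n = 4 each), with a log2 fold change of 0.34 ± 0.090 (edgeR exact test, adjusted p = 0.133). DESeq2 gave an adjusted p of 0.0454 and limma-voom with quality weights 0.0397. Without 0 µM heme replicate 1, the exact test gave 0.0458, and over 18 alternative settings the adjusted p ran from 0.0272 to 0.466, with 4 past the threshold.

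Cu-Zn superoxide dismutase AAEL019937 had 79.1, 60.04, 61.5 and 46.02 CPM with heme, against 62.6, 38.3, 37.2 and 46.002 CPM without. The groups overlapped, and replicate 1 was again the highest of each. The log2 fold change was 0.42 ± 0.23 (edgeR exact test, adjusted p = 0.372), and it turned on the replicate 1 libraries. It was 0.61 without 0 µM heme replicate 1 (edgeR exact test, adjusted p = 0.0368), 0.27 without 10 µM heme replicate 1 (adjusted p = 0.721) and 0.46 without both (adjusted p = 0.0817). Of 18 alternatives, 1 passed the threshold, and the adjusted p ran from 0.0368 to 0.737. Within a library, counts of AAEL006271 were 0.584%, 1.22%, 0.737% and 1.14% of those of AAEL019937 with heme and 0.565%, 1.04%, 1.33% and 0.994% without. These shares overlapped between the groups.

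Thioredoxin peroxidase TPX4 AAEL002309 had 526, 339.5, 473 and 201 CPM with heme, against 1118, 456, 635 and 501 CPM without. The groups overlapped, since the highest heme library lay above 2 of the libraries without heme. The log2 fold change was -0.82 ± 0.43 (edgeR exact test, adjusted p = 0.267), with an interval of 0.333-fold to 0.973-fold. Its size rested in large part on 0 µM heme replicate 1, without which it was -0.46 (edgeR exact test, adjusted p = 0.578), and leaving out 10 µM heme replicate 2 as well gave -0.41 (adjusted p = 0.684). Of 18 alternatives, 1 passed the threshold, the fit with the replicate block (quasi-likelihood test, adjusted p = 0.0359), and the range was 0.0359 to 0.684. Counts of AAEL002309 agreed within 2% with those of another identifier, AAEL002311, in every library, so reads of this gene cannot be assigned to it alone.

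Within a library, the count of AAEL013528 relative to AAEL002309 separated the treatments. It was 6.22%, 6.76%, 5.70% and 8.92% with heme, against 2.75%, 3.68%, 2.97% and 3.79% without. The lowest heme library was above the highest library without heme. This pair was chosen after the values were seen, so no test is given. How often other pairs of genes separate in this way was not examined. As given above, reads of AAEL002309 cannot be assigned to that gene alone. Neither gene passed the threshold on its own in the exact test with all 8 libraries, and the ratio combines a positive change in one with a negative change in the other.

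**Figure D4:**
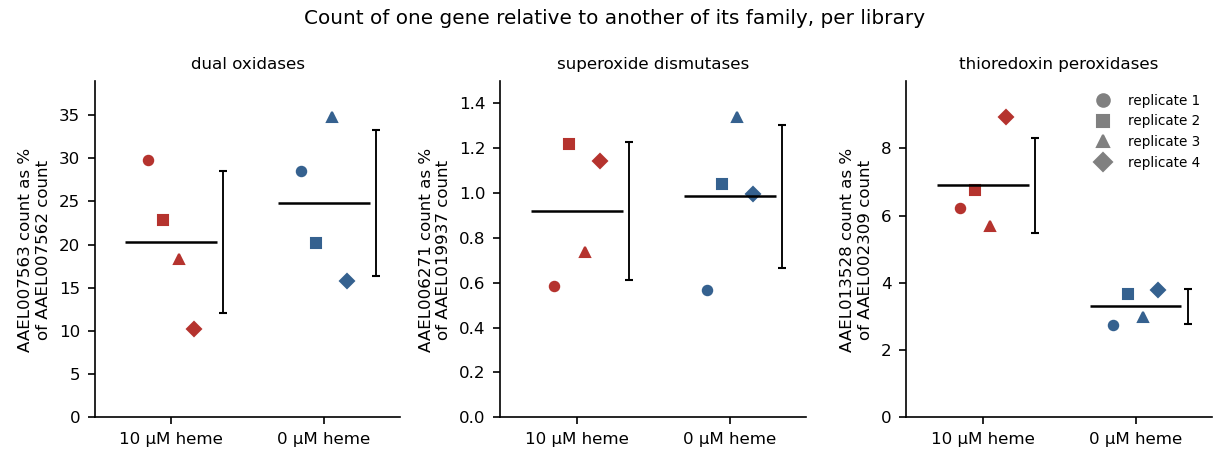
Count of one gene as a percentage of the count of another of the same family in each library with 10 µM heme and 0 µM heme (linear axes from 0, replicate number by symbol, mean as a line, 1 SD as a bar). The dual oxidases (10.2% to 29.8% with heme, 15.8% to 34.7% without) and the superoxide dismutases overlap. The thioredoxin peroxidases do not (5.70% to 8.92% with heme, 2.75% to 3.79% without), a pair chosen after its values were seen.

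The neighbouring steps gave no call by the edgeR exact test either, and the counts by the quasi-likelihood test and DESeq2 below stand against the same shares of all genes, 2.85% and 6.47%. The list for NADPH supply held malic enzyme, isocitrate dehydrogenase and 6-phosphogluconolactonase, the last of which makes no NADPH itself. The annotation does not state whether this isocitrate dehydrogenase makes NADPH. Of these 3 enzymes, 0 were called, with 1 at an unadjusted p under 0.05, and the quasi-likelihood test called 0 and DESeq2 1. That gene was malic enzyme AAEL001091, which makes NADPH from malate, at 47.6 ± 3.23 CPM with heme and 62.8 ± 8.78 CPM without (SD, n = 4 each), a log2 fold change of -0.40 ± 0.11 (edgeR exact test, adjusted p = 0.0645). It passed the threshold under 4 of 18 alternatives. Of 4 other oxidases that release peroxide, 0 were called, with 0 at an unadjusted p under 0.05 and 0 by the quasi-likelihood test. DESeq2 called 1 of them, acyl-CoA oxidase AAEL008574, which releases peroxide in peroxisomal fatty acid oxidation (log2 fold change -0.20 ± 0.036 in the edgeR exact test, adjusted p = 0.475, and adjusted p = 0.0311 by DESeq2). Amine oxidase AAEL009045 of that list had low counts (14 to 26 with heme, 5 to 15 without), as had aldehyde oxidase AAEL010370 (6 to 14 with heme, 2 to 10 without). Their limma-voom intervals were 0.937-fold to 3.70-fold for AAEL009045 and 0.890-fold to 3.26-fold for AAEL010370. The absence of a call therefore does not show that they were unchanged. The list for heme synthesis, the pathway that provides the heme of catalase, held 4 enzymes. They were 5-aminolevulinic acid synthase, porphobilinogen synthase, coproporphyrinogen III oxidase and cytochrome c1 heme lyase. The lyase attaches finished heme to a cytochrome and is not a step of synthesis. Of these 4, 0 were called, with 1 at an unadjusted p under 0.05, and the quasi-likelihood test called 0 and DESeq2 1. The gene was 5-aminolevulinic acid synthase AAEL007787, the first enzyme of the pathway, at 68.6 ± 14.7 CPM with heme and 98.6 ± 11.2 CPM without (SD, n = 4 each). Its log2 fold change was -0.52 ± 0.18 (edgeR exact test, adjusted p = 0.0680), and 6 of 18 alternatives called it.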

How the data were processed

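The study's methods describe alignment of single-end reads to AaegL5 with HISAT2 2.1.0, removal of low-quality alignments with SAMtools, and counting over transcripts with BEDtools 2.19.1. Neither strand handling nor the treatment of reads that fall on several transcripts is stated there. The values deposited by the authors are raw counts, 1 column for each library. Counts cover sampling of reads, not of molecules, so counting errors are lower limits of error.

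The main test was edgeR's exact test (version 4.0.16, R 4.3.3) over all 8 libraries (filterByExpr, TMM, estimateDisp without a design, two-sided, Benjamini-Hochberg over 11095 genes, threshold 0.05). Log2 fold changes are 10 µM minus 0 µM heme. Intervals are 95% from limma 3.58.1 voom, without adjustment. CPM are counts per 1000000 of the TMM-scaled total, and the SE uses a prior count of 2. Procedures were tested on simulated data with 2-fold changes only, so how well they detect smaller changes was not examined. Alternatives were the quasi-likelihood test with and without a replicate block, DESeq2 1.42.0, voom with quality weights, other scalings and filters, and leaving out libraries.

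Members and lists were chosen with earlier results of these data known. All members are named. Of the other lists, called genes are named. AAEL002309, AAEL003599, AAEL019937, AAEL001091, AAEL007787, AAEL008574, AAEL009045 and AAEL010370 were added after their values were seen. Gene names come from the study's annotation and roles from general knowledge. No member was found in the RefSeq gene table used, so sequences, positions and lengths are not given, and levels of different genes are not ranked.

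Same-numbered libraries deviated together, though unevenly (correlations 0.515, 0.0702, 0.0616 and 0.157 for numbers 1 to 4). The main test assumed no pairing by number, and results with a replicate block are given below. No pair of replicates agreed within counting error, the closest having a chi-square of 40.4 per degree of freedom.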

Additional observations from a re-analysis of the deposited data

Results flagged for a closer look

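Thioredoxin peroxidase AAEL013528 had 30.8 CPM in 0 µM heme replicate 1, against 16.8 to 18.98 CPM in the other 3 libraries of that group. The gap took up 0.843 of the range of the group, above Dixon's 95% limit for 4 libraries. This was the only such value among 26 groups of 4 libraries examined, where chance alone would give about 1.3. Replicate 1 was also the highest heme library for this gene, at 32.7 CPM. The part of the library in the level of this gene was not tested.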

How the results depend on the processing

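Under 18 alternatives, 17 of them planned, 0 members were called in each. The smallest adjusted p of any member was 0.0857, for thioredoxin reductase by DESeq2. Over the alternatives its log2 fold change ran from -0.32 to -0.20, and that of catalase from 0.16 to 0.31. The sign turned for AAEL007562, which ran from -0.032 to 0.32 with 1 library left out. It also turned for glutathione peroxidase, at -0.071 with library totals and -0.046 to 0.074 with 1 library left out. With a CPM filter, AAEL007563 and AAEL006271 were not tested. The quasi-likelihood test called 316 of all genes, and leaving out 1 library gave 333 (without 10 µM heme replicate 3) to 549. Library totals moved the median log2 fold change of all genes by -0.086 and the share higher among 442 called genes to 32.1%, against 47.9%.

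Adding the replicate block gave 725 calls over all genes, 0 of them members, and 2 other redox genes, AAEL002309 (adjusted p = 0.0359) and sulfiredoxin (adjusted p = 0.0272). It also called 1 NADPH gene and 1 heme synthesis gene, and 4 of 8 libraries correlated best with their own number. With the block, 2 members had an unadjusted p under 0.05 in the quasi-likelihood test, beside 2438 of all genes. Without the block it was 1 member, beside 1665 of all genes. The paired dual oxidase difference was -0.33 (exact sign-flip permutation p = 0.5). With only 4 pairs this test cannot give a p under 0.05, so no conclusion is drawn from it. Other redox genes called numbered 1 with DESeq2 and with quality weights, and 0 to 2 with 1 library left out. NADPH genes called numbered 1 with DESeq2, library totals and the CPM filter, as did heme synthesis genes, which numbered 0 to 1 with 1 library left out. Peroxide-producing oxidases called numbered 1 with DESeq2. The cause of these differences was not tested. Leaving out both replicate 1 libraries, chosen after seeing the data, called 0 members (smallest adjusted p = 0.489), as did leaving out 0 µM heme replicate 1 with 10 µM heme replicate 2 (0.316). Planned tests of shares among superoxide dismutases and thioredoxin peroxidases were not run, since 3 members were not analysed here. For AAEL007563 the spread between replicates was below counting error in both groups.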
